A study of Bos taurus with 22 samples.

Results

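The enzymes described here build the sugar chains of mucins and the alpha-galactose cap of cell surface glycans. They are GGTA1, FUT2, ST6GALNAC1, GCNT3, C1GALT1, B3GALT5, GALNT3, GALNT4 and GALNT7, 9 glycosyltransferase genes picked by symbol. They were put together with measured values of these same steers in view. The comparison of GLP-2 with vehicle is taken to be the one used, which the rule itself does not state, and the values in that comparison are given as a description without a test. Of the 9 symbols, 8 were found among the 27570 genes of the count table. GALNT4 was not found by symbol and is not analysed here. A filter on low counts was passed by 6 members (GGTA1, FUT2, GCNT3, C1GALT1, GALNT3 and GALNT7), whereas B3GALT5 and ST6GALNAC1 stayed below it.

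Messenger RNA was sequenced from jejunal mucosa of 22 Holstein steers, 10 to 12 months of age. All of them were infused into the abomasum with corn starch, raw, at 3.94 g per kg of body weight daily over 7 days. In a factorial design, the starch was given with water or with sodium caseinate (1.30 g per kg per day), and steers were injected with GLP-2 (100 µg per kg per day) or with its bovine serum albumin (BSA) vehicle. The treatments were control (water and BSA, n = 5), GLP-2 (water and GLP-2, n = 5), casein (casein and BSA, n = 6) and casein + GLP-2 (n = 6). GLP-2 is a gut hormone known for promoting growth of the intestinal mucosa. Each sample was scraped from the middle of the jejunum and held a mixture of cell types, so a change in the share of a cell type and a change of mRNA within its cells cannot be told apart. The enterocyte gene FABP2, the epithelial gene EPCAM and the brush border phosphatase gene ALPI had counts in every steer. Libraries held 8809666 to 28447810 counts assigned to genes, and 3 counts were worth 0.123 to 0.344 CPM, the share of a library scaled so that libraries of unequal depth can be compared. Of the vehicle steers, 4 (control replicates 1, 3 and 5 and casein replicate 3) stood apart by a B cell follicle score, the mean log2 CPM of 12 markers, of 5.86 or more, with 3.54 as the highest value of the other 18 steers. Control replicates 3 and 5 and casein replicate 3 also held the 3 lowest values of an epithelial score and villus enterocyte scores of 7.86 or less. Values without these 4 steers, an alternative chosen after seeing the data, are given beside the results. Levels of a gene between steers are given as CPM after TMM normalization, and levels between genes as FPKM, which also divides by gene length.

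Mucin-type O-glycans are started in the Golgi by polypeptide GalNAc-transferases, the GALNT enzymes, which attach N-acetylgalactosamine to serine or threonine. C1GALT1 adds galactose to form core 1, and GCNT3 adds a branch to form core 2 or core 4, on which chains such as those made with B3GALT5 are extended. The chains are then capped: FUT2 adds the terminal fucose of the H antigen, ST6GALNAC1 adds sialic acid to form sialyl-Tn, and GGTA1 adds the alpha-1,3-linked galactose that cattle carry and humans lack. These glycans form much of the mass of intestinal mucus and of the glycocalyx of enterocytes.

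On the ARS-UCD1.2 assembly the deposited annotation listed the members as protein-coding genes scattered over separate chromosomes. GALNT3 (ENSBTAG00000013957) lies on the plus strand at chr2:30545764-30569913 and GALNT7 (ENSBTAG00000016845) on the plus strand at chr8:5591834-5726979. C1GALT1 (ENSBTAG00000004995) lies on the plus strand at chr4:15276632-15320627, GCNT3 (ENSBTAG00000009443) on the minus strand at chr10:50634343-50639462 and B3GALT5 (ENSBTAG00000023407) on the plus strand at chr1:139747766-139748825. FUT2 (ENSBTAG00000021557) lies on the plus strand at chr18:55335379-55336413, ST6GALNAC1 (ENSBTAG00000001998) on the plus strand at chr19:55121131-55140468 and GGTA1 (ENSBTAG00000012090) on the minus strand at chr11:92317777-92395185. None of the 8 overlapped another annotated gene. A gene described as GGTA1-like (ENSBTAG00000039186) held 25 counts in all steers, and SEC1, which resembles FUT2, held 29. FUT1 and ABO, relatives of FUT2 and GGTA1 described further on, had higher levels. Whether reads were shared with any relative was not tested.

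Per gene length, GALNT3, FUT2 and GGTA1 had the highest mean levels. The annotated lengths ran from 891 bases for B3GALT5 and 1035 for FUT2 to 3694 for GCNT3. Whether they cover whole transcripts was not tested, and the order by FPKM depends on them. Mean FPKM over the 22 steers was 33.9 ± 14.9 (SD) for GALNT3, 31.4 ± 14.6 for FUT2 and 30.3 ± 20.3 for GGTA1. GALNT7 had 18.2 ± 7.60 FPKM and C1GALT1 11.4 ± 4.17 FPKM. Neighbours among these 5 genes did not differ beyond the spread of their within-steer difference, which was 0.14 ± 0.40 on the log2(FPKM + 0.1) scale between GALNT3 and FUT2 and 0.14 ± 0.85 between FUT2 and GGTA1. GCNT3 was lower at 3.68 ± 9.33 FPKM, a mean raised by 1 steer described further on, and C1GALT1 exceeded it in 21 of 22 steers. B3GALT5 had 0.537 ± 0.777 FPKM and ST6GALNAC1 0.0107 ± 0.0361 FPKM, each lower than the gene before it by more than the SD of the difference.

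**Figure D1:**
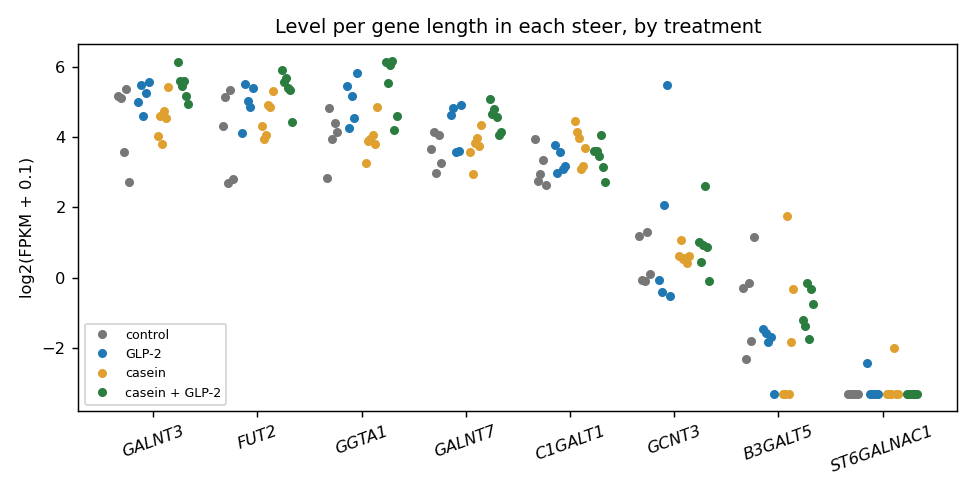
Level of each of the 8 genes found, as log2(FPKM + 0.1), with 1 point per steer, coloured by treatment. GALNT3, FUT2, GGTA1, GALNT7 and C1GALT1 overlap one another, GCNT3 lies lower apart from 1 GLP-2 steer, and ST6GALNAC1 sits at the floor of the scale in 20 of 22 steers.

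The lowest members were near the limit of counting. ST6GALNAC1, the sialyl-Tn enzyme, had 5 counts in all: 3 in casein replicate 4 and 2 in GLP-2 replicate 1, with 0 in the other 20 steers. A count of 0 allowed up to 0.123 to 0.344 CPM, depending on the library, for counting error only. B3GALT5, which makes type 1 chains, had 155 counts in all and 0 in 4 steers. Its highest value was 2.95 CPM in casein replicate 3 and the next 1.86 CPM in control replicate 5. The median was 0.169 CPM in vehicle and 0.239 CPM in injected steers, whose highest value was 0.709 CPM. No fold change is given for these 2 genes.

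GALNT3 and GALNT7, which start the chains or add to them early, had higher means with GLP-2, and GALNT3 was widely spread in vehicle steers. In control steers GALNT3 was at 96.4, 91.1, 30.5, 110.1 and 16.6 CPM, and in GLP-2 steers at 86.3, 115.0, 65.5, 102.4 and 124.0 CPM. Casein steers had 36.2 CPM as the lowest, 64.1 as the median and 114.5 as the highest value, and casein + GLP-2 steers 83.4, 121.8 and 176.1 CPM. The injected and vehicle steers overlapped: 5 of 11 GLP-2-injected steers lay above the highest vehicle steer, 6 of 11 vehicle steers lay below the lowest injected one, and control replicates 3 and 5 were far below the other control steers. Both are among the follicle-rich steers named above. Mean GALNT3 was 111.1 ± 29.8 CPM in GLP-2-injected and 67.0 ± 33.2 CPM in vehicle steers (SD, 11 steers in each group), so that the log2 fold change was 0.74 (SE 0.259).

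GALNT7, which prefers substrates that already carry N-acetylgalactosamine, had a similar difference in its mean. Its values were 46.5, 64.1, 27.6, 60.5 and 33.5 CPM in control steers and 92.0, 100.4, 43.7, 44.4 and 108.9 CPM in GLP-2 steers. Casein steers ranged from 27.4 to 74.2 CPM with a median of 50.9, and casein + GLP-2 steers from 61.3 to 116.4 CPM with a median of 89.0. Among steers infused with water the injected animals fell into a higher set of 3 and a lower set of 2 that lay inside the control range, and 7 of 11 injected steers exceeded every vehicle steer. The group means were 82.8 ± 25.1 and 48.6 ± 15.1 CPM (n = 11 each), and the log2 fold change was 0.78 (SE 0.200).

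C1GALT1, which forms core 1, was not higher in its mean with GLP-2. It was at 35.4, 14.9, 16.8, 23.2 and 13.5 CPM in control steers and at 31.7, 17.3, 27.5, 19.8 and 20.4 CPM in GLP-2 steers. Casein steers ranged from 19.3 to 49.6 CPM (median 32.7) and casein + GLP-2 steers from 15.3 to 38.2 CPM (median 25.3). No GLP-2-injected steer was above the highest vehicle steer, and the means of 24.4 ± 6.73 and 27.1 ± 11.7 CPM gave a log2 fold change of -0.15 (SE 0.211).

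GCNT3, the branching enzyme of mucus-secreting epithelium, had a high mean with GLP-2 that rested on a single animal. Its values were 3.27, 2.40, 15.7, 171.2 and 2.21 CPM in GLP-2 steers against 8.26, 3.17, 3.06, 8.83 and 3.56 CPM in control steers. Casein steers lay between 4.74 and 7.39 CPM, and casein + GLP-2 steers between 3.21 and 22.5 CPM with a median of 6.56. GLP-2 replicate 5 alone held 1766 counts, 46.9% of all GCNT3 counts in the 22 steers, and 33.1 times the median CPM of the others. Apart from it, only GLP-2 replicate 4 (15.7 CPM) and casein + GLP-2 replicate 4 (22.5 CPM) exceeded the highest vehicle steer, and 2 injected steers were below the lowest. The log2 fold change was 2.02 (SE 0.658) with all steers and 0.42 without GLP-2 replicate 5, when the injected mean fell from 22.3 ± 49.8 (n = 11) to 7.39 ± 6.60 CPM (n = 10) against 5.44 ± 1.96 CPM in vehicle steers.

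FUT2, which makes the H antigen that microbes and pathogens of the gut bind, differed by about as much as the GALNT genes. Control steers had 20.9, 36.9, 6.43, 42.8 and 7.05 CPM and GLP-2 steers 18.5, 46.3, 34.7, 31.0 and 43.9 CPM. Casein steers ranged from 16.1 to 41.6 CPM (median 26.0) and casein + GLP-2 steers from 23.3 to 60.0 CPM (median 46.9). The groups overlapped, with 6 of 11 injected steers above the highest vehicle steer, and the low control steers, replicates 3 and 5, were those that were low in GALNT3 and are follicle-rich. Mean FUT2 was 40.6 ± 12.6 against 24.8 ± 12.9 CPM (11 steers per group), a log2 fold change of 0.73 (SE 0.286).

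GGTA1, the alpha-galactose enzyme, had the largest difference that did not hang on 1 steer. Control steers had 14.8, 59.2, 31.1, 43.9 and 35.9 CPM, and GLP-2 steers 92.5, 39.3, 77.02, 49.9 and 117.1 CPM. Casein steers had 19.8 CPM as the lowest, 31.0 as the median and 61.5 as the highest value, and casein + GLP-2 steers 38.5, 117.9 and 151.9 CPM. All 11 injected steers exceeded the vehicle median, 7 exceeded every vehicle steer and 8 of 11 vehicle steers lay below every injected one. In casein + GLP-2 steers the values were split, with replicates 5 and 6 at 38.5 and 52.1 CPM and the other 4 at or above 98.4 CPM. The means were 90.3 ± 42.1 and 35.7 ± 14.4 CPM (11 steers per group), a log2 fold change of 1.34 (SE 0.270). With each steer left out in turn it lay between 1.22 and 1.45. This range is a description only, since GGTA1 is taken to have been picked on this comparison.

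**Figure D2:**
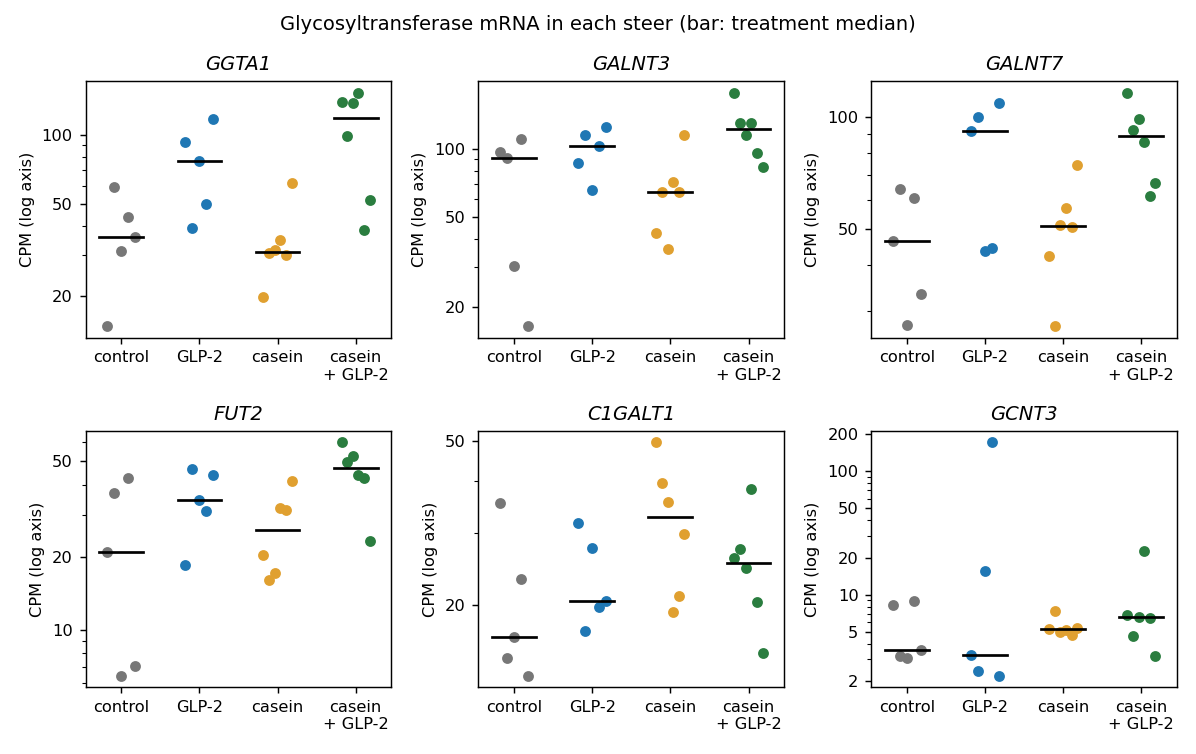
CPM on a log axis for the 6 genes that passed the filter, with 1 point per steer and a bar at the median of each treatment. GGTA1, GALNT3, GALNT7 and FUT2 are shifted up in GLP-2-injected steers with overlap, C1GALT1 is not, and GCNT3 has 1 GLP-2 steer at 171.2 CPM.

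Without the 4 follicle-rich vehicle steers, the log2 fold change between 11 injected and 7 vehicle steers was 1.18 for GGTA1, 0.63 for GALNT7, 0.48 for GALNT3, 0.37 for FUT2, 1.94 for GCNT3 and -0.22 for C1GALT1. The values of GALNT3 and FUT2 thus moved by more than 1.5 times. Of all 13928 genes 0 then passed an adjusted p of 0.05 in edgeR, with 1913 at an unadjusted p of 0.05.

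Within each infusion the direction of these differences was alike for 5 of the 6 genes, again as a description. GGTA1 differed by 1.02 (SE 0.398) between GLP-2 and control and by 1.57 (SE 0.368) between casein + GLP-2 and casein on the log2 scale. GALNT7 differed by 0.75 and 0.78, GALNT3 by 0.52 and 0.89, and FUT2 by 0.61 and 0.78 in the same order. C1GALT1 differed by 0.17 with water and by -0.36 with casein. GCNT3 differed by 2.84 with water, where the outlying steer lies, and by 0.61 with casein. In edgeR's quasi-likelihood test over all genes, 13.5% of 13928 genes differed between GLP-2 and vehicle at a Benjamini-Hochberg adjusted p of at most 0.05 (5.13% higher and 8.37% lower). Of the members, 3 (GGTA1, GALNT7 and GCNT3) were on the higher side of that threshold and FUT2, GALNT3 and C1GALT1 were not past it. Nothing is read from that count, since the genes are taken to have been picked on this comparison. No gene among the 13928 had injected and vehicle steers without overlap.

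Postruminal casein infusion was taken not to have been used to pick the genes and was tested. In edgeR's quasi-likelihood test 0 of 14096 genes passed an adjusted p of 0.05 between casein-infused and water-infused steers (0% of genes, with 474 or 3.36% at an unadjusted p of at most 0.05, and 5 genes past the threshold with DESeq2). The 6 members were no exception, with an adjusted p of 0.994 for each. GGTA1 was at 68.8 ± 49.2 CPM in 12 casein-infused and 56.1 ± 31.1 CPM in 10 water-infused steers, a log2 fold change of 0.31 with a 95% interval from -0.46 to 1.08. FUT2 had 0.32 (-0.32 to 0.97), GALNT3 0.17 (-0.44 to 0.77) and GALNT7 0.15 (-0.36 to 0.66), of which the last turned to -0.048 without the 4 follicle-rich steers. These intervals left room for changes of either sign, so absence of a casein effect was not shown.

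C1GALT1 was the member whose casein interval came closest to leaving out 0 without resting on 1 steer. It was at 28.9 ± 10.1 CPM in casein-infused and 22.03 ± 7.33 CPM in water-infused steers, a log2 fold change of 0.40 (95% interval -0.024 to 0.82, edgeR unadjusted p = 0.0634). Of the casein-infused steers, 10 of 12 exceeded the water median. Between casein and control alone the log2 difference was 0.64 (SE 0.288), with an edgeR unadjusted p of 0.0353 and a Benjamini-Hochberg adjusted p of 0.855, where 5.66% of 15086 genes reached an unadjusted p of 0.05. Between casein + GLP-2 and GLP-2 it was 0.12 (SE 0.285), with an edgeR unadjusted p of 0.678 and a Benjamini-Hochberg adjusted p of 0.995. GCNT3 had a casein log2 fold change of -1.65 (edgeR unadjusted p = 0.0233), which turned to 0.29 without GLP-2 replicate 5. Its values were 6.94 ± 5.03 CPM with casein and 22.2 ± 52.5 CPM with water, and 11 of 12 casein-infused steers were nevertheless above the water median of 3.42 CPM.

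No member had a detectable casein × GLP-2 interaction. Across all 15086 genes 0 passed an adjusted p of 0.05 in edgeR (0% of genes, with 645 or 4.28% at an unadjusted p of at most 0.05, and 2 genes past the threshold with DESeq2), and the members' adjusted p ranged from 0.996 to 0.997. The GLP-2 difference of GGTA1 was 0.54 larger on the log2 scale with casein than with water (95% interval -0.56 to 1.65). It was 0.38 larger for GALNT3 (-0.71 to 1.46), 0.17 for FUT2 (-1.03 to 1.36) and 0.038 for GALNT7 (-0.79 to 0.87). When single steers were left out, the sign for FUT2 turned, for example, without control replicate 4 (-0.19). That for GALNT7 turned without any of several steers, for example GLP-2 replicate 5 (-0.11), casein replicate 2 (-0.087) or casein + GLP-2 replicate 1 (-0.050). The interaction was -0.52 (-1.36 to 0.31) for C1GALT1, and for GCNT3 it was -2.23 with all steers and 0.48 without GLP-2 replicate 5.

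**Figure D3:**
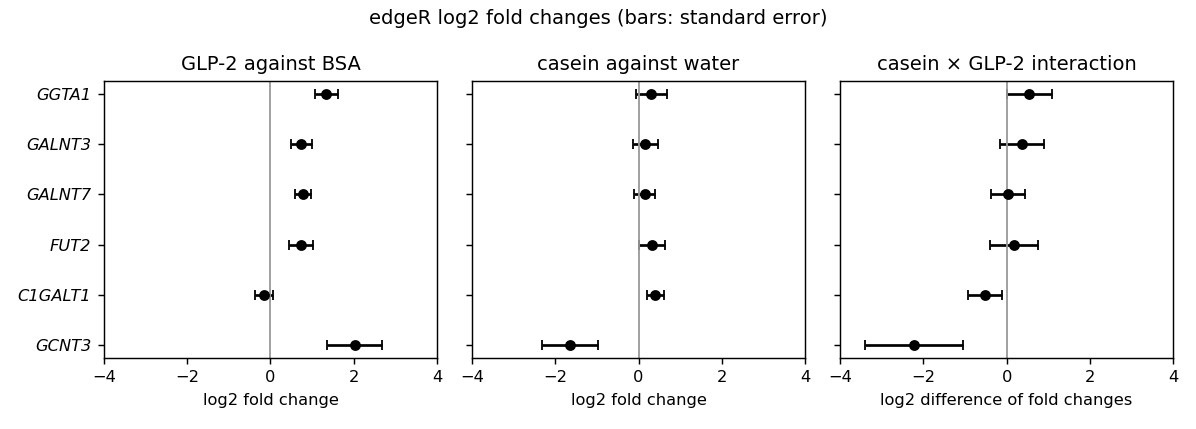
edgeR log2 fold changes of the 6 genes for GLP-2 against BSA (a description, 11 against 11 steers), casein against water (12 against 10 steers) and their interaction (22 steers), with bars for the standard error. GGTA1, GALNT7, GALNT3 and FUT2 lie between 0.73 and 1.34 for GLP-2, all but GCNT3 lie between 0.15 and 0.40 for casein, and the wide GCNT3 bars come with its outlying GLP-2 steer.

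Steers of the same treatment differed in these genes by a wide margin, and this variation within treatments was taken not to have been used to pick them. After the mean of each treatment was taken out of log2 CPM, FUT2 and GALNT3 varied together, with Pearson's r 0.845 and Spearman's rho 0.868 over 22 steers (permutation p = 0.00026 and 4e-05, adjusted over 15 gene pairs to 0.0039 and 6e-04). GALNT7 followed FUT2 (r 0.661, rho 0.749, permutation p = 0.0019 and 0.00046, adjusted 0.0142 and 0.00345) and GALNT3 (r 0.623, rho 0.696, permutation p = 0.00355 and 0.00122, adjusted 0.0177 and 0.0061). Without the 2 steers farthest from the median of the first gene, r was 0.784, 0.591 and again above 0.591 for these pairs. In the 18 steers that were not follicle-rich, r was 0.676, 0.562 and 0.658 (permutation adjusted p = 0.0797, 0.113 and 0.0797) and rho 0.773, 0.717 and 0.668 (0.0142, 0.0381 and 0.0424), so that the rank relations stayed past the threshold and the linear ones did not. Genes outside the members were closer over 22 steers: the gene ranked 10 by r was at 0.906 for FUT2, 0.939 for GALNT3 and 0.883 for GALNT7. These relations were therefore not shown to be particular to the members.

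The relations of GGTA1 to these genes were less clear. Its r with GALNT7 was 0.486 and rho 0.567 (permutation p = 0.0304 and 0.0113, adjusted 0.114 and 0.0423), and r was 0.518 without the 2 farthest steers. With FUT2 and GALNT3 its r was 0.307 and 0.261 and its rho 0.420 and 0.381 (permutation adjusted p of r 0.481 and 0.580, and of rho 0.178 and 0.215). In the 18 steers its r was 0.530 with GALNT7, 0.569 with GALNT3 and 0.364 with FUT2 (permutation adjusted p = 0.113, 0.113 and 0.402). C1GALT1 had an r between -0.009 and 0.263 with the other members, and the highest of these, with GCNT3, had a rho of 0.496 (permutation adjusted p = 0.0502). Body weight blocks of 3 or 4 steers were too small for values within a block.

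The levels of the co-varying genes moved with the amount of villus enterocyte mRNA. A villus enterocyte score, the mean log2 CPM of 18 markers such as LCT, SLC5A1 and FABP2, ranged from 6.20 to 10.7 in vehicle and from 9.06 to 11.2 in GLP-2-injected steers. With treatment means taken out, its r was 0.874 with GALNT3 (rho 0.886), 0.802 with FUT2 (rho 0.878) and 0.677 with GALNT7 (rho 0.766). The permutation p values, adjusted over 18 relations with marker scores, were 0.00018, 0.00216 and 0.00906 for r and 0.00018, 0.00036 and 0.00162 for rho, of which those for GALNT3 come from 1e-05, the smallest that 100000 permutations can give. Without the 2 steers of most distant score, r was 0.839, 0.820 and 0.745. GGTA1 had r 0.405 and rho 0.438 (permutation adjusted p = 0.127 and 0.0942), and 0.434 without those steers. C1GALT1 had -0.208 and -0.226 (permutation adjusted p = 0.569 and 0.477), and GCNT3 -0.116 and -0.042 (0.610 and 0.963). Whether these correlations differ from gene to gene was not tested.

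The same relations were computed in the 18 steers that were not follicle-rich. With the villus enterocyte score r was 0.826 for GALNT3, 0.637 for FUT2, 0.656 for GALNT7 and 0.471 for GGTA1 (permutation adjusted p = 0.00846, 0.051, 0.0572 and 0.154), and rho 0.787, 0.814, 0.789 and 0.408 (0.00738, 0.00468, 0.00738 and 0.221). Only for GALNT3 did the linear relation stay past the threshold, while the rank relation did so for GALNT3, FUT2 and GALNT7. With the B cell follicle score over 22 steers, rho was -0.535 for GGTA1, -0.564 for GALNT7, -0.633 for GALNT3 and -0.726 for FUT2 (permutation adjusted p = 0.025, 0.0212, 0.025 and 0.00603). In the same order r was -0.455, -0.455, -0.607 and -0.656 (0.0796, 0.0938, 0.0796 and 0.0278). The follicle-rich steers stand apart on this score. In the 18 other steers r was -0.541 for GGTA1, -0.476 for GALNT7, -0.376 for GALNT3 and -0.342 for FUT2 (permutation adjusted p = 0.051, 0.051, 0.174 and 0.174). Spearman's coefficient was -0.521, -0.585, -0.323 and -0.517 (0.0975, 0.0274, 0.317 and 0.0975), and r without the 2 farthest steers was -0.609, -0.591, -0.597 and -0.511. In the 18 steers all 4 values were negative, and only that of GALNT7 by rank was past the threshold. The score of 9 epithelial markers had r 0.723 with GALNT3 and 0.655 with FUT2 over 22 steers (rho 0.686 and 0.679, permutation adjusted p = 0.0126 and 0.0278 for r and 0.0141 for both rho), but 0.312 and 0.396 in the 18 (adjusted 0.283 and 0.174). With GALNT7 and GGTA1 its r was 0.217 and 0.005 over 22 steers.

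**Figure D4:**
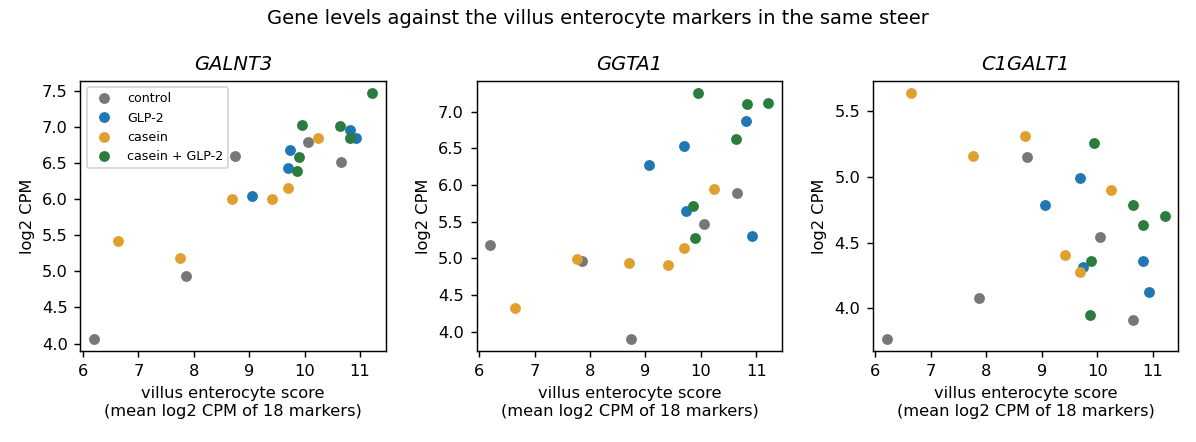
Log2 CPM of GALNT3, GGTA1 and C1GALT1 in each steer against the villus enterocyte score of that steer (mean log2 CPM of 18 markers), coloured by treatment. GALNT3 climbs along the score in all treatments (r 0.874 with treatment means taken out), GGTA1 is more scattered (r 0.405) and C1GALT1 does not climb (r -0.208).

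Marker lists of other cell types and states differed between the injection groups beside these genes. All 18 enterocyte markers had a positive log2 fold change between GLP-2 and vehicle (50.7% of all genes did), with a median of 1.06 (0.008 over all genes), and 2 of them, SLC5A1 and LCT, passed an adjusted p of 0.05 in edgeR. The summed level of the 18 markers ranged from 3123 to 85410 CPM in vehicle and from 28370 to 128600 CPM in injected steers. Of 10 B cell follicle markers tested 9 were lower, and the sum of all 12 on that list was 50.4 to 2217 CPM in vehicle and 32.1 to 87.2 CPM in injected steers, with no marker at 0 in every steer of a group. The goblet cell list had 1 of 9 tested markers higher (CREB3L1), with sums of 844 to 5068 (median 1648) and 1255 to 5176 CPM (median 3546). The 9 smooth muscle markers had a median of -1.02, with 3 lower at an unadjusted p of 0.05 and none past the threshold in edgeR. Such counts stand beside 4817 of all 13928 genes at an unadjusted p of 0.05 in edgeR, so nothing is read from them. At an adjusted p of 0.05, which the calls on these marker lists use, 5.13% of all genes were higher and 8.37% lower in edgeR. Of 9 epithelial markers 3 were higher (EPCAM, CDH1 and CLDN7) and of 8 proliferation markers 2 were lower (AURKB and CCNB1), with 5 lower at an unadjusted p of 0.05, a median log2 fold change of -0.60 and none positive. With the replicate block the edgeR adjusted p was above the threshold for SLC5A1 (0.0509), LCT (0.0576), EPCAM (0.0637), AURKB (0.0549) and CCNB1 (0.0754).

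Where such a score was entered as a covariate, the GLP-2 fold changes of GALNT3, FUT2, GALNT7 and GGTA1 were smaller, again as a description. With the villus enterocyte score, an alternative chosen after seeing the data, the log2 fold change was 0.077 for GALNT3, 0.11 for FUT2, 0.34 for GALNT7 and 0.98 for GGTA1. With the B cell follicle score it was 0.28, 0.11, 0.45 and 0.95, and with the score of 9 epithelial markers 0.30, 0.29, 0.65 and 1.31 in the same order. The last of these, for GGTA1, was close to its value without a score (1.34). GCNT3 had 2.26, 2.24 and 1.645 with the villus, follicle and epithelial score, against 2.02 without a score. C1GALT1 had 0.043, -0.086 and -0.19 in the same order, against -0.15. In each of these fits 0 of 13928 genes passed an adjusted p of 0.05 in edgeR (607, 348 and 2028 at an unadjusted p of 0.05 with the villus, follicle and epithelial score), so these are fold changes without a call. Each score differed between the injection groups itself, so the part of cell composition in these differences cannot be told apart from that of GLP-2.

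The genes whose levels were nearest to each member across steers differed too, by Pearson's r of treatment-centred log2 CPM over 22 steers among 13240 genes with a symbol. For GALNT3 the nearest was SLC35A3, which encodes the Golgi transporter of UDP-N-acetylglucosamine (r 0.978), for GALNT7 the retinal reductase gene RDH11 (r 0.918) and for FUT2 VMP1 (r 0.932). For GGTA1 the 5 nearest were GSE1 (r 0.823), the copper transporter gene ATP7A (0.814), JARID2 (0.810), ZBTB40 (0.803) and PLAGL2 (0.799). The nearest to C1GALT1 was WDR43, a gene of ribosome biogenesis (r 0.833), and the nearest to GCNT3 was IGFLR1 at a weaker r of 0.680 and a rho of 0.433. These genes were taken from the top of a ranking, so no p is given.

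The wider family of glycosyltransferases was mixed in direction. On 7 lists of enzymes of the same pathways, which were compiled with earlier results of these data known, 52 genes other than the members were tested between GLP-2 and vehicle. Of these, 6 were higher and 5 lower (21.2%, beside 13.5% of all genes) at an adjusted p of 0.05 in edgeR, and their median log2 fold change was 0.17 (0.008 over all genes). With the replicate block 5 of the 11 stayed past the threshold (B4GALT5, GCNT2, GCNT4, B4GALT2 and CHST1), beside 689 of all 13928 genes in that fit. Without the 4 follicle-rich steers 0 did, with 10 of 52 at an unadjusted p of 0.05 in edgeR, beside 1913 of all 13928 genes. Between casein and water 0 of 52 passed in edgeR and 0 in DESeq2, with 2 at an unadjusted p of 0.05 in edgeR, beside 3.36% of all genes. For the interaction 0 of 58 passed in edgeR and 0 in DESeq2, with 1 higher and 1 lower at an unadjusted p of 0.05 in edgeR, beside 4.28% of all genes.

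Among the enzymes that start chains, GALNT12 rose from 69.6 ± 26.1 to 112.3 ± 27.6 CPM (log2 fold change 0.70, edgeR Benjamini-Hochberg adjusted p = 0.0307), 1 of 8 tested GALNT genes outside the members, and with the replicate block its adjusted p was 0.0509. GALNT1 was at 120.8 ± 27.9 and 131.7 ± 21.3 CPM and did not pass (log2 fold change 0.13). Among core enzymes GCNT4, another branching enzyme, rose from 74.6 ± 23.9 to 122.8 ± 34.1 CPM (0.73, edgeR adjusted p = 0.0235), and C1GALT1C1, the chaperone that C1GALT1 needs, was at 34.3 ± 10.7 and 39.2 ± 7.71 CPM without passing. The core 3 enzyme gene B3GNT6 was at 181.2 ± 142.6 and 308.4 ± 192.1 CPM, a difference within its spread between steers.

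Chain extension held 3 of the 6 higher genes. B4GALT5, known for making lactosylceramide, rose from 50.6 ± 32.4 to 110.0 ± 42.3 CPM (log2 fold change 1.14), the I-branching gene GCNT2 from 16.2 ± 9.08 to 32.3 ± 9.47 CPM (1.01) and B4GALT1 from 105.6 ± 30.6 to 151.6 ± 34.1 CPM (0.53), while B4GALT2 fell from 26.0 ± 7.14 to 17.7 ± 3.00 CPM (-0.55). Their edgeR Benjamini-Hochberg adjusted p values were 0.0252, 0.0241, 0.0389 and 0.0238, and that of B4GALT1 was 0.0586 with the replicate block. Among sialyltransferases, blood group type enzymes and sulfotransferases 4 genes fell and 1 rose, where lower calls also outnumbered higher ones over all genes (8.37% and 5.13%). ST6GALNAC2, a relative of ST6GALNAC1, fell from 16.4 ± 10.4 to 8.18 ± 3.21 CPM (log2 fold change -1.02) and ST3GAL3 from 16.2 ± 8.88 to 8.61 ± 3.26 CPM (-0.92), as 2 of 11 tested sialyltransferases with 0 higher. A4GALT, which makes globotriaosylceramide with an alpha-1,4-linked galactose, fell from 7.47 ± 8.03 to 2.71 ± 1.02 CPM (-1.48), and the sulfotransferase CHST1 from 4.25 ± 3.39 to 1.23 ± 1.04 CPM (-1.81), whereas the ganglioside gene B4GALNT1 rose from 106.6 ± 37.2 to 164.7 ± 38.6 CPM (0.65). Adjusted p values by edgeR were 0.0452, 0.0334, 0.0462, 0.0237 and 0.0342 for these 5 genes, each with n = 11 in both groups. With the replicate block ST6GALNAC2 (adjusted p = 0.0729), ST3GAL3 (0.0512), A4GALT (0.127) and B4GALNT1 (0.0573) no longer passed in edgeR. The sign turned for ST6GALNAC2 with the villus score (0.13) and the follicle score (0.16) as a covariate, and for A4GALT with the follicle score (0.40) and without the 4 follicle-rich steers (0.092). The other genes past the threshold on these lists kept their sign with each score, but with smaller fold changes. With the villus score B4GALT5 had 0.33, GCNT2 0.44 and B4GALT1 0.15. With the follicle score B4GALNT1 had 0.12, GALNT12 0.117 and ST3GAL3 -0.0405.

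None of the 7 tested fucosyltransferases other than FUT2 passed in edgeR. All 7 had a positive log2 fold change (50.7% of all genes did), and the list median was 0.50 (0.008 over all genes). An edgeR unadjusted p of 0.05 was reached by 1 of them, beside 4817 of all 13928 genes. FUT1, the other H antigen enzyme, was at 29.5 ± 18.1 CPM in vehicle and 43.1 ± 20.1 CPM in injected steers (edgeR adjusted p = 0.243). ABO, whose product belongs to the same enzyme family as GGTA1, was at 70.2 ± 37.0 and 114.8 ± 46.7 CPM (edgeR adjusted p = 0.0916).

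**Figure D5:**
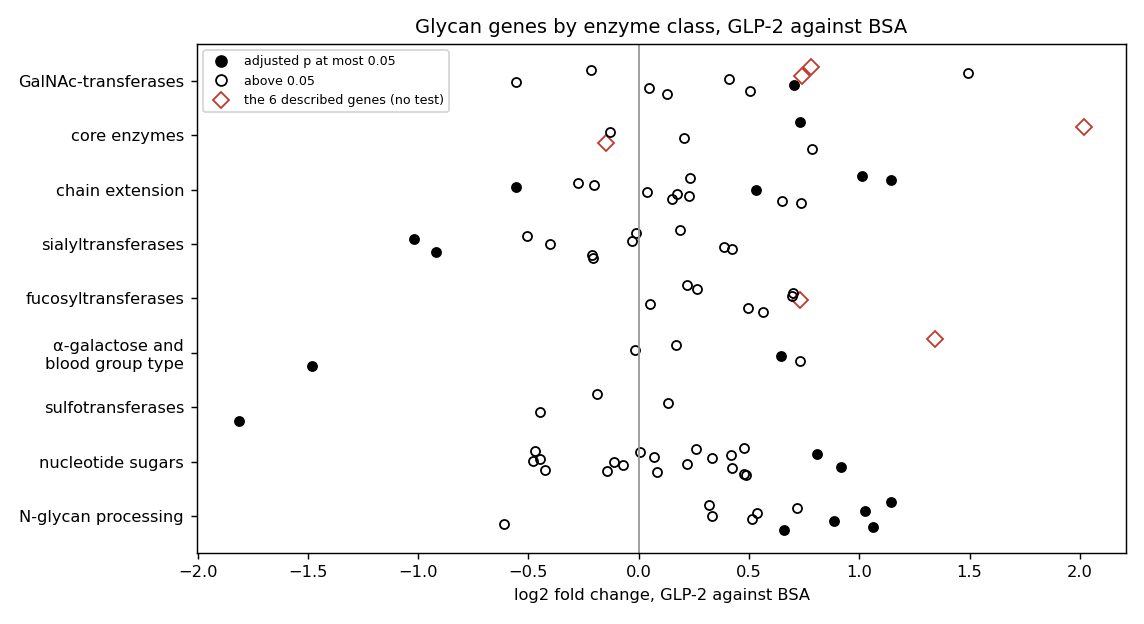
edgeR log2 fold changes between 11 GLP-2-injected and 11 vehicle steers for the tested genes of 9 glycan lists, 1 point per gene, filled where the adjusted p was at most 0.05 and with the 6 members as open diamonds. Filled points lie on both sides of 0 among the glycosyltransferases and on the right only for the nucleotide sugar and N-glycan lists.

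Genes that supply or share the pathway were counted as well. Over all genes 5.13% were higher and 8.37% lower at an adjusted p of 0.05 in edgeR, with a median log2 fold change of 0.008. Of 20 tested genes of nucleotide sugar supply 2 were higher and 0 lower, namely GFPT1, the entry enzyme of the hexosamine pathway (76.3 ± 44.3 to 142.8 ± 48.2 CPM, edgeR adjusted p = 0.0436), and SLC35A3 (159.5 ± 82.1 to 276.6 ± 71.1 CPM, edgeR adjusted p = 0.0446). The N-glycan processing list, whose enzymes act in the same Golgi stacks, had 5 of 11 higher and 0 lower with a median log2 fold change of 0.66. These were MAN2A1 (0.89), MAN1A1 (0.66), MAN1A2 (1.06), MGAT3 (1.03) and MGAT5 (1.15). With the replicate block the edgeR adjusted p of SLC35A3 (0.0531), MAN1A1 (0.0512) and MAN1A2 (0.0543) was above the threshold, and without the 4 follicle-rich steers 0 genes passed. Of the mucins, the proteins that carry O-glycans, only 5 of 15 symbols were found and 2 tested. MUC13 was at 429.7 ± 353.1 and 1084 ± 750.9 CPM and MUC20 at 4.65 ± 4.53 and 2.08 ± 1.63 CPM in vehicle and injected steers. Neither passed the adjusted threshold, with 1 higher and 1 lower at an edgeR unadjusted p of 0.05. MUC2, the secreted mucin of goblet cells, was not found by symbol and is not analysed here.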

How the data were processed

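The authors trimmed reads with fastp, aligned them to ARS-UCD1.2 with HISAT2 2.0.5, assembled transcripts with StringTie 1.3.3b, counted reads per gene with featureCounts 1.5.0-p3 and deposited raw counts. The strand setting of the counting is not given in the sources used here. The authors also deposited FPKM values, scaled by gene length and library. A further GLP-2 steer is not analysed here, and 1 control was not sequenced by the authors because of low RNA integrity. The paper gives RNA integrity over its samples and not by steer, so its part in the spread between steers was not tested.

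The members and lists were chosen with earlier results of these data known. Genes named are the members, list genes past the threshold (at most 5 per list), the nearest genes (5 for GGTA1, 1 for others) and defining markers. GALNT1, C1GALT1C1, B3GNT6, FUT1, ABO, MUC13, MUC20, DUOXA2 and DUOX2 were added after their values were seen. In R 4.3.3, edgeR 4.0.16 (filterByExpr with minimum count 10, TMM, quasi-likelihood test, Benjamini-Hochberg over all genes kept, threshold 0.05) compared 11 GLP-2 with 11 BSA steers, 12 casein with 10 water steers, and the 4 treatments for the interaction. The fits were also run on simulated counts, drawn independently for each gene at the same dispersion. That simulation held no differences in cell composition, so it does not show how the fits behave where these exist. Log2 CPM used a prior count of 2, and permutation tests were 2-sided within treatments. Of 50 pairs of libraries within treatments 0 were identical. Replicate numbers are the body weight blocks of the labels, within which the study assigned treatments, and each steer is a separate animal. Steers of the same block but different treatments had a mean r of 0.0331 between their deviations from treatment means (30 pairs, 13 of them over 0.1). Alternatives were DESeq2 1.42.0 (size factors and Wald test), no filter, limma 3.58.1 on log2 FPKM with pseudocounts of 1 and 0.1, the block, marker score covariates, the other factor, each steer left out, and the 4 steers with a follicle score above 5 left out.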

Additional observations from a re-analysis of the deposited data

Results flagged for a closer look

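Of 24 groups of values (the 6 tested members in each treatment), 4 held a steer that lay apart from the rest by Dixon's test at the 95% level, which chance does in about 1 in 20 groups. GCNT3 in GLP-2 replicate 5 was at 171 CPM and the next GLP-2 steer at 15.7 CPM. GCNT3 in casein + GLP-2 replicate 4 was at 22.5 CPM, with the next steer at 6.81 CPM. Within casein steers GCNT3 in replicate 2 was at 7.39 CPM and the next at 5.38 CPM. GGTA1 in casein replicate 6 was at 61.5 CPM, and the next casein steer was at 35.1 CPM. Without that steer the GLP-2 log2 fold change of GGTA1 was 1.45 in place of 1.34. In the GCNT3-high GLP-2 replicate 5, the epithelial oxidase gene DUOX2 and its maturation factor gene DUOXA2 were at 5.92 and 8.73 CPM. GLP-2 replicate 4 had 46.7 and 41.4 CPM of them and casein + GLP-2 replicate 4 had 11.5 and 5.84 CPM. The other 19 steers had at most 5.69 and 7.73 CPM, so that DUOXA2 of casein + GLP-2 replicate 4 lay inside their range.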

How the results depend on the processing

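Between GLP-2 and BSA 1881 genes passed, against 2999 with the DESeq2 Wald test, 689 with the replicate block and 0 with the B cell follicle, epithelial or villus enterocyte score as a covariate or without the 4 follicle-rich steers. Of the other glycosyltransferases 11 passed, 5 with the block and 0 with each score or without those 4. Leaving out 1 steer moved these counts from 647 (without casein + GLP-2 replicate 3) to 3519 (without control replicate 2) and from 5 to 13. B4GALT5, GCNT2, GCNT4, B4GALT2 and CHST1 passed in all 22 such fits and with the block, B4GALT1 and ST6GALNAC2 in 9, A4GALT in 10, B4GALNT1 in 12, ST3GAL3 in 15 and GALNT12 in 18. Casein against water gave 5 genes and the interaction 2 with DESeq2, and 0 in all fits without 1 steer. The GLP-2 fold change of GCNT3 was 0.40 with DESeq2 and 0.50 and 0.55 with limma on log2(FPKM + 1) and log2(FPKM + 0.1). The GLP-2 fold change of C1GALT1 turned from -0.15 to 0.043 with the villus score. Signs turned for casein in GCNT3 (0.32 with DESeq2) and GALNT3 (-0.049 with the follicle score), in GALNT7 without the 4 follicle-rich steers (-0.048), and for the interaction in FUT2 (-0.073 and -0.11 with limma, -0.26 with the villus score) and GALNT7 (-0.067 with the villus score). Leaving out 1 steer gave casein values for GCNT3 from -1.97 to 0.29, and interactions from -2.77 to 0.48 for GCNT3, -0.19 to 0.41 for FUT2 and -0.11 to 0.22 for GALNT7. The causes were not tested. With 155 and 5 counts in all, B3GALT5 and ST6GALNAC1 were too low for a comparison.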
